A study of Mus musculus with 3 samples.

Results

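The miR-34 family of the mouse was measured by 6 probes, the 5p and 3p arms of miR-34a, miR-34b and miR-34c, out of 1265 microRNA probes on each of 3 single-colour arrays. The probes were taken by name, and the rule itself uses no measured value. All 3 arrays held total RNA of intestinal organoids, small epithelial bodies kept in Matrigel with R-spondin 1, EGF and Noggin and without serum. The wild-type array held organoids of normal epithelium from wild-type mice. The tumour array held organoids of intestinal tumours from ApcMin mice, whose germline Apc allele is truncated, and the treated array held ApcMin tumour organoids exposed to 1 uM of 5-Aza-CdR, also called decitabine, which traps DNA methyltransferases. The labels give no age, number of animals, exposure time or p53 status. Each group had 1 array and each probe 1 spot per array, so no value below has an error between cultures, no test was possible, and the group cannot be told apart from the culture, the RNA extraction or the array.

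MicroRNAs of this family are transcribed from separate loci, cut from hairpins into a 5p and a 3p strand, and loaded into Argonaute, where the seed (bases 2 to 8) selects target messenger RNAs. The 5p strand is the guide that is usually studied. p53 activates both loci directly after DNA damage or oncogene stress, and the guides repress messengers of cell cycle and survival proteins such as Cdk6, Met, Bcl2 and Notch1. In human colorectal tumours the promoters of MIR34A and MIR34B/C are often described as methylated, and in mice the miR-34b/c locus is used mainly in multiciliated cells and testis, together with the miR-449 cluster.

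The mature strands show why the family and the miR-449 cluster were set side by side, since they share a seed. The sequences are those of RefSeq on GRCm38.p6, written 5′ to 3′ with the seed in capitals. RefSeq entries were matched for 5 of the 6 miR-34 probes and 4 of the 5 miR-449 probes; miR-34c-5p and miR-449b were not matched.
miR-34a-5p: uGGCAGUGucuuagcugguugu
miR-34b-5p: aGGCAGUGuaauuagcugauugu
miR-449a-5p: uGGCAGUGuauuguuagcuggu
miR-449c-5p: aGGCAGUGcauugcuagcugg
miR-34a-3p: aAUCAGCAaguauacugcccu
miR-34b-3p: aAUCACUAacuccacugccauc
miR-34c-3p: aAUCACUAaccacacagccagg
The 4 listed 5p strands carry the same seed and are the only 4 of 1679 mature names in the table that do. Counted from the 5′ end without gaps and with the seed included, miR-34a-5p matches miR-34b-5p at 11 of 22 positions, miR-449a-5p at 15 of 22 and miR-449c-5p at 12 of 21. A count without gaps misses matches that are shifted along the strand, so it does not rank likeness. All 4 also hold the bases uagcug after the seed, further along in the other strands than in miR-34a-5p. Whether the 5p probes share signal was not tested. The 3p strands of miR-34b and miR-34c share a different seed and match at 17 of 22 positions, so their probes may share signal. miR-34a-5p lies at chr4:150068473-150068494 on the plus strand, and its hairpin gene Mir34a overlaps no other gene of the table. The hairpins Mir34b and Mir34c lie on the minus strand of chromosome 9, at 51103562 to 51103645 and 51103034 to 51103110, with 451 bases between them and inside the spans of the genes Btg4 and Hoatz; whether they fall in exons or introns was not analysed here.

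The level of the family rested on a single strand. Of the 6 probes 1, miR-34a-5p, exceeded the brightest negative control spot, and it did so on all 3 arrays. Its spot median, the brightness recorded by the scanner in arbitrary units, was 132 in wild-type organoids, 263 in tumour organoids and 358 in treated tumour organoids, against brightest negative controls of 42.8, 53.04 and 38.3 (24 such spots per array). With the mean of the blank spots of each array subtracted, it stood 105, 233 and 335 above blank. It was lowest in wild-type and highest in treated organoids. By brightness it was the 168th of 1263 usable probes for wild type, the 137th of 1265 for tumour and the 89th of 1265 for treated organoids, an order that needs no scaling between arrays. Its nearest neighbours in brightness were miR-665-5p and miR-504-3p in wild-type, let-7i-5p and miR-5620-5p in tumour, and miR-204-3p and miR-1934-3p in treated organoids.

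**Figure D1:**
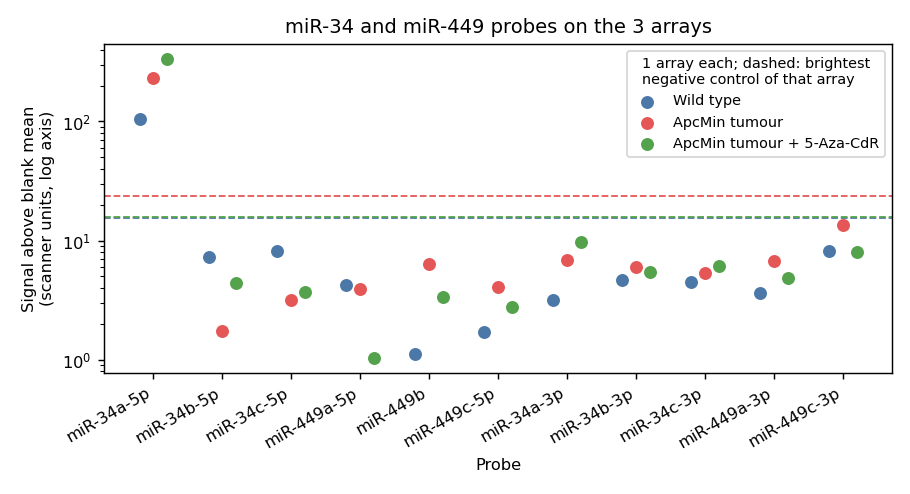
Signal of each miR-34 and miR-449 probe above the mean of the blank spots (vertical axis, scanner units, log scale) for wild-type, tumour and treated organoids, 1 spot per point; dashed lines mark the brightest negative control of each array. miR-34a-5p stands at 105, 233 and 335, and the other 10 probes lie under the line of their array.

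The remaining 5 miR-34 probes lay within the range of the negative controls, although most were above the blank spots. A looser limit, the blank mean plus 2 SD, was passed by 6 of 6 miR-34 probes in wild-type, 5 in tumour and 6 in treated organoids. For comparison, 954, 959 and 914 of all probes passed it, and 413, 410 and 408 were brighter than the brightest negative control. The blank mean and SD leave out 5% of the blank spots at each end, so this trimmed SD is smaller than that of all blank spots. On the wild-type array miR-449c-5p lay just under the limit, and 8.11% of the blank spots were brighter than its spot.

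The passenger strand of the same hairpin, miR-34a-3p, was faint and followed the order of its guide. Its signal above blank was 3.15 on the wild-type, 6.83 on the tumour and 9.78 on the treated array, where the trimmed SD of blank spots was 0.901, 1.14 and 0.750. The unscaled ratio of tumour to wild-type signal was 2.17 ± 0.717 for miR-34a-3p and 2.23 ± 0.0220 for miR-34a-5p, where the error carries only the trimmed SD of the blank spots. The unscaled ratio of treated to untreated tumour signal was 1.43 ± 0.263 for the 3p and 1.44 ± 0.00770 for the 5p strand. Unscaled, 81.7% of the 1040 probes over the limit of 2 SD on either array were higher in tumour than in wild-type organoids. Their median log2 difference was 0.53. In treated against untreated tumour organoids 7.19% of 1015 such probes were higher, with a median of -0.67. The 5p ratios lay within the error of the 3p ratios, but the 3p spot was brighter than only 6, 14 and 17 of the 24 negative controls.

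The strands of miR-34b and miR-34c, which come from a shared transcript, were all faint, and only miR-34c-3p had the order of miR-34a in signal above blank. miR-34b-5p was 7.30 above blank in wild-type organoids, 1.75 in tumour organoids, where it did not pass the limit of 2 SD, and 4.37 in treated organoids. miR-34c-5p was 8.23 on the wild-type, 3.19 on the tumour and 3.70 on the treated array. Both 5p strands were thus brightest on the wild-type array, brighter there than 16 of the 24 negative controls, and brighter than 1 of 24 on the tumour array. Their 3p strands differed less, at 4.62, 6.02 and 5.42 for miR-34b-3p and 4.45, 5.34 and 6.10 for miR-34c-3p, in the order wild-type, tumour and treated. The unscaled ratio of tumour to wild-type signal was 0.239 ± 0.159 for miR-34b-5p and 0.388 ± 0.145 for miR-34c-5p, against 1.30 ± 0.353 and 1.20 ± 0.352 for the 3p strands, with errors from the blank spots alone. At these signals the direction of most of these strands depended on the processing, as given for each comparison below, and none of the 4 strands can be read as present on any array by the negative controls.

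miR-449a, miR-449b and miR-449c, known from multiciliated cells, were also under the negative controls. Their 5 probes ranged from 1.13 to 8.09 above blank in wild-type, from 3.93 to 13.4 in tumour and from 1.04 to 7.97 in treated organoids. None of the 5 exceeded the brightest negative control on any array. Fewer cells of a type and less RNA per cell cannot be told apart in such whole-culture RNA.

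For differences between arrays the signals were corrected for background from the blank spots, raised by an offset of 50, quantile normalized and put on the log2 scale, as set out under the processing. Alternatives were an offset of 16, subtraction of the blank mean, correction by the per-spot background column, scaling to the spike controls, to the median of all probes or to that of probes detected on all arrays (the common-probe median), the authors' values, and no scaling. The offset draws differences of dim probes towards 0. A probe was counted in a comparison when it passed the limit of 2 SD on either array, and called when it differed by at least 2-fold. The arrays themselves differed in brightness: the first spike control averaged 8030 for wild type, 7951 for tumour and 5007 for treated organoids, where blank means were 27.3, 29.5 and 22.7.

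In tumour against wild-type organoids miR-34a-5p was higher by a log2 difference of 0.49 (1.40-fold), from 7.38 to 7.87 on the normalized log2 scale. It ranked 48th of 1040 counted probes from the highest. This difference was short of 2-fold and larger than the spread of replicate spike spots, whose SD for a difference between these arrays was 0.144; those spots are far brighter and say nothing of variation between cultures. The difference ranged from 0.59 to 1.16 under 7 of the 8 alternative settings, among them 0.72 in the authors' values, and it turned to -0.11 under per-spot background correction.

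No miR-34 probe was called in this comparison, where 1.25% of all counted probes were called higher and 1.35% lower, nor was any past 1.5-fold, where the shares were 3.17% and 3.65%. Of the 6 probes 2 were above 0 and 4 below, with a median of -0.012, against a median of 0.0032 over all counted probes, of which 51.9% were above 0. The lowest were miR-34b-5p and miR-34c-5p, both at -0.17, the former only a bound of at least 1.12-fold since it did not pass the limit on the tumour array. With the blank mean subtracted and values floored at 2 blank SD, they were at -2.13 and -1.94 and so past 2-fold. In that setting 65 of all 1040 counted probes were higher and 56 lower by as much. In the authors' values miR-34c-5p was past 2-fold lower, at -1.81. With no scaling miR-34a-5p (1.16) and miR-34a-3p (1.12) were past 2-fold higher, and miR-34b-5p (-1.68) and miR-34c-5p (-1.37) lower. The splits of all calls in these settings are given below. miR-34c-5p was below 0 in all 9 settings, whereas miR-34b-5p turned to 0.0017 under per-spot background correction and had no value in the authors' table. miR-34a-3p, at 0.050, turned to -0.077 scaled to the common-probe median, and the 3p strands of miR-34b and miR-34c, at -0.0066 and -0.017, were above 0 in 3 and 2 of 9 settings. The number of the 6 above 0 was 1 scaled to the common-probe median, 3 under per-spot background correction, 4 with spike scaling and 4 with no scaling; in the latter pair 84.7% and 81.7% of all probes were above 0. The split of all calls, 13 higher and 14 lower, also moved with the scaling. It was 22 and 11 scaled to the common-probe median, 32 and 10 for that of all probes, 37 and 9 for spike scaling, 55 and 35 in the authors' values and 207 and 25 unscaled.

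In treated against untreated tumour organoids miR-34a-5p was higher by 0.90 (1.87-fold), from 7.87 to 8.77. Only 2 of the 1015 counted probes had a larger difference, and the SD of a difference between spike spots of these arrays was 0.156. It stayed short of the 2-fold threshold with quantile scaling and passed it with the offset of 16 (1.01), with the blank mean subtracted (1.08) and with the spike controls (1.11). Under either median scaling and under spike scaling only 1 counted probe had a larger difference, with miR-34a-5p at 0.62, 0.52 and 1.11. Under per-spot background correction the difference was 0.29 and the rank 63rd of 1015, and with the blank mean subtracted the rank was 27th.

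The signals before any scaling showed the same contrast with most other probes. Of the 375 probes brighter than the negative controls on all 3 arrays, 15 had a higher signal above blank on the treated than on the untreated tumour array; the spike controls were dimmer there too. miR-34a-5p was the second of these 15 with a ratio of 1.44. The first was miR-22-3p, which is also described as a p53 target and had a ratio of 2.34, from 90.4 to 212 above blank. The third was miR-221-3p, a repressor of the cell cycle inhibitor p27 in human cells, at 1.34. Among the 15 were also the linked miR-27a-3p and miR-23a-3p, at 1.08 and 1.03.

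All 6 miR-34 probes were above 0 in this comparison, with a median of 0.10, against 44.6% of all counted probes above 0 and a median of -0.0068. All of them except miR-34a-5p were under the brightest negative control on both arrays and cannot be read as present by it. None was called at 2-fold, where 0.0985% of all probes were called higher and 0% lower. At 1.5-fold 1 of the 6 was past the threshold, miR-34a-5p, against 0.591% of all probes, and none was lower by as much, against 0.69%. After miR-34a-5p came miR-34a-3p at 0.15, miR-34b-5p at 0.11 (a bound of at least 1.07-fold, since it was not over the limit in untreated tumour organoids), miR-34c-3p at 0.09, miR-34c-5p at 0.06 and miR-34b-3p at 0.05. The last turned to -0.0064 under per-spot background correction and to -0.15 with no scaling, and the other 4 of these 5 kept their sign in each setting that gave a value. With the blank mean subtracted 4 of the 6 were past 2-fold, where 32 probes in all were higher and 20 lower by as much. The split of all calls was 1 higher and 0 lower with quantile scaling, 1 and 3 scaled to the common-probe median, 0 and 8 with that of all probes, 9 and 34 in the authors' values and 5 and 218 unscaled. The 5 miR-449 probes were split 2 above and 3 below 0, with a median of -0.018, and 5 of 5 were above 0 under spike scaling, 0 of 4 in the authors' values and 0 of 5 unscaled, where 94.3%, 25.3% and 7.19% of all probes were above 0.

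In treated tumour organoids against wild-type organoids miR-34a-5p was 2.62-fold higher, a log2 difference of 1.39, and was the only called member of the family. It ranked seventh from the highest of 1027 counted probes, of which 1.27% were called higher and 1.36% lower at 2-fold, and 3.21% and 3.89% at 1.5-fold. The difference stood at 1.32 scaled to the common-probe median, 1.33 with that of all probes, 1.64 in the authors' values and 2.002 with the spike controls, against spike spots whose SD for a difference was 0.123. It was 0.18, short of 2-fold, under per-spot background correction. The comparison shares an array with each of the preceding pair, so it is the sum of their differences and not a further measurement. With the blank mean subtracted miR-34a-3p was past 2-fold as well, at 1.73, and in the authors' values it was at 1.59 and miR-34c-5p at -1.19. With no scaling miR-34a-3p was at 1.63 and miR-34c-5p at -1.15. Of all counted probes, 67 were higher and 61 lower by 2-fold with the blank mean subtracted, of 1027. In the authors' values these were 39 and 60 of 840, and with no scaling 50 and 86 of 1027.

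The split of all calls was 13 higher and 14 lower, 67 and 3 under spike scaling and 50 and 86 unscaled. The other 5 probes ranged from -0.11 for miR-34c-5p to 0.20 for miR-34a-3p. Of the 6, 4 were above 0, with a median of 0.059, against 47.9% of all counted probes and a median of -0.0049; with spike scaling 6 of 6 were above 0, as were 97.1% of all probes. miR-34c-5p and miR-34b-5p were below 0 at -0.11 and -0.067 and turned to 0.57 and 0.61 under spike scaling, as did miR-34b-5p to 0.021 under per-spot background correction. miR-34b-3p, at 0.045, turned to -0.0050 under that correction, and miR-34c-3p, at 0.072, stayed above 0 in 9 of 9. miR-34a-3p, whose unscaled ratio was 3.10 ± 0.918 beside 3.20 ± 0.0284 for miR-34a-5p, was above 0 in each of the 9 settings.

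**Figure D2:**
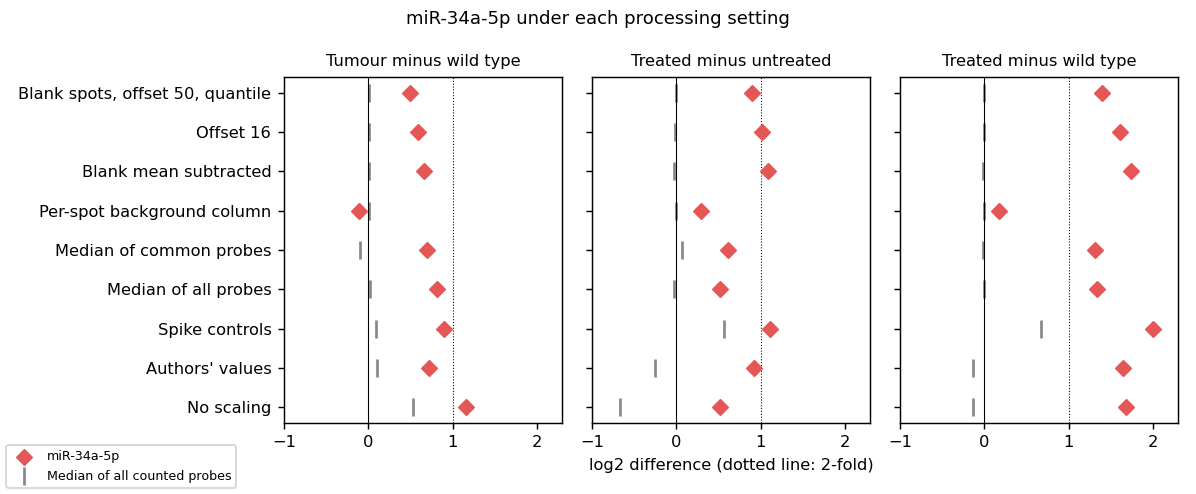
log2 difference of miR-34a-5p (diamonds) and median over all counted probes (ticks) in the 3 comparisons under each processing setting; the dotted line marks 2-fold. The first row is the setting reported throughout (0.49, 0.90 and 1.39), and the per-spot background column gives -0.11, 0.29 and 0.18.

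The setting that lowered miR-34a-5p most rests on the background column of the scanner files, which at this probe was about as bright as the spot. It amounted to 99.0% of the spot median for wild type, 115% for tumour and 90.04% for treated organoids, so that the spot minus this background was 1.28, -38.5 and 35.6. Among probes within 1.5-fold of its brightness the column had medians of 80.3%, 89.7% and 64.6% of the spot, and 7 of 78, 1 of 56 and 14 of 51 such probes had a higher share. Of the 5 spots listed beside it on the array, miR-96-5p read 105 in wild-type, 253 in tumour and 218 in treated organoids. The other 4 read from 41.2 to 60.4, from 39.9 to 88.0 and from 31.6 to 62.5 in the same order. The part of this background in the differences was not tested.

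Probes with the most similar pattern were sought among the 374 others brighter than the negative controls on all 3 arrays, by the Euclidean distance in the log2 differences of tumour and of treated tumour from wild type. The nearest was miR-27a-3p at a distance of 0.16, with differences of 0.65 and 1.38 beside 0.49 and 1.39 for miR-34a-5p. Its signal above blank was 131 in wild-type, 345 in tumour and 371 in treated organoids. The next were miR-96-5p (0.45), miR-709 (0.47), miR-182-5p (0.50) and miR-31-5p (0.53), all of them higher in tumour organoids by 0.39 to 0.90 and in treated organoids by 0.88 to 1.11 over wild type. miR-96-5p occupies a spot beside miR-34a-5p. Likeness over 3 arrays is a description, and many probes with 2 such differences can lie close by.

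The smaller of the steps of miR-34a-5p, 0.49, was also set as a threshold for both tumour against wild type and treated against untreated tumour, which miR-34a-5p meets by construction. Among the other 374 probes miR-27a-3p and miR-23a-3p met it, the latter with 1.14 and 0.52, and miR-23b-3p lay just outside with 1.69 and 0.47.

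**Figure D3:**
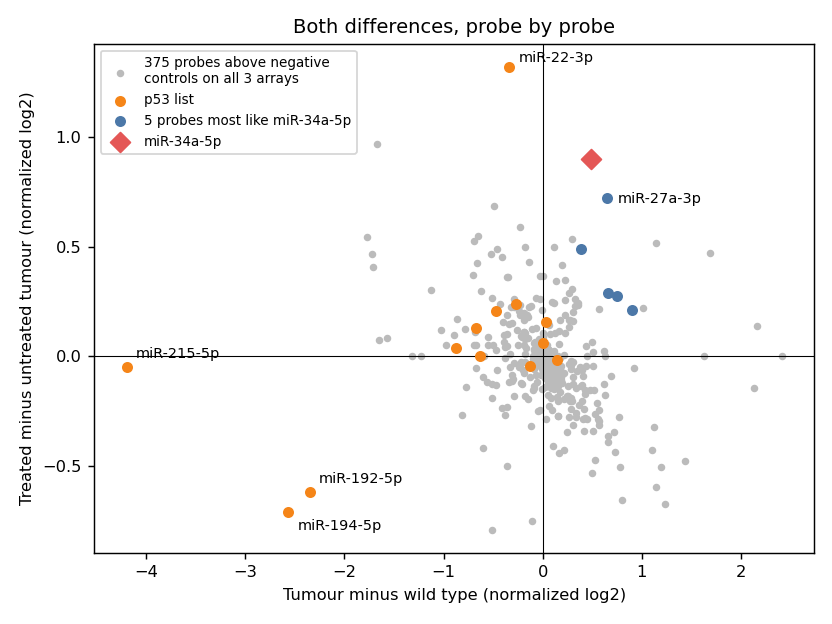
Normalized log2 difference of tumour minus wild type (horizontal) and of treated minus untreated tumour (vertical) for the 375 probes brighter than the negative controls on all 3 arrays. The axes share the untreated tumour array; miR-34a-5p lies at 0.49 and 0.90, miR-22-3p at -0.34 and 1.32, and miR-215-5p at -4.20 and -0.05.

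Other microRNAs described as induced or processed under p53 had no direction in common as a group. The list held 28 probes of 13 microRNAs (no probe was named miR-605), of which 18 were brighter than the negative controls on at least 1 array. In tumour against wild type 27 were counted, 8 above 0 and 19 below, with a median of -0.13 beside 0.0032 for all probes. None was called higher, against 1.25% of all probes, and 4 were called lower, against 1.35%. These 4 were miR-215-5p (-4.20) with its 3p strand (-1.03), miR-192-5p (-2.35) and miR-194-5p (-2.57), strands of clusters known from intestinal epithelium. With spike scaling 16 of the 27 were above 0, against 84.7% of all probes. miR-192-5p and miR-215-3p each turned sign in 1 of 8 alternative settings.

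Other p53-list probes with signal varied among themselves, and only some are described here. miR-107-3p, an intronic microRNA of the pantothenate kinase gene Pank1, was 343 above blank in wild-type, 248 in tumour and 168 in treated organoids, with log2 differences of -0.87 in tumour and -0.83 in treated organoids against wild type; the latter turned positive in 1 alternative setting. miR-16-5p, which targets cyclins, was 774, 667 and 446 above blank, a difference of -0.63 in both. miR-15a-5p, from the cluster of miR-16-1, was at -0.47 in tumour against wild type. In contrast, miR-205-5p, an epithelial microRNA of the basal layers, was 9.11 above blank in wild-type, 64.3 in tumour and 56.7 in treated organoids, with differences of 0.70 and 0.95 over wild type; its wild-type spot was under the brightest negative control. miR-149-3p was at -0.67 in tumour against wild type, and was positive in 5 of the 8 alternative settings.

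In treated against untreated tumour organoids 28 probes of the p53 list were counted, 18 above 0 and 9 below, with a median of 0.032 beside -0.0068 for all probes. miR-22-3p was the only one called higher, at 1.32, where 0.0985% of all probes were called. The split of the list was 26 above and 2 below with the spike controls, 12 and 16 scaled to the all-probe median, 10 and 17 in the authors' values and 3 and 25 unscaled, where 94.3%, 38.03%, 25.3% and 7.19% of all probes were above 0. The lowest were miR-194-5p at -0.71 and its cluster partner miR-192-5p at -0.62. With quantile scaling and blank-spot correction the next after miR-22-3p was miR-205-5p at 0.25, followed by miR-141-3p at 0.24, beside 0.90 for miR-34a-5p. Under per-spot background correction, where miR-34a-5p was at 0.29, 3 probes of the list were past 2-fold higher, miR-149-3p at 1.79, miR-16-5p at 1.25 and miR-194-5p at 1.08. In that setting 22 of all 1015 counted probes were higher and 22 lower by as much. miR-205-5p and miR-141-3p turned sign in 2 and 3 alternative settings, and miR-192-5p and miR-194-5p in 1 each; miR-22-3p was above 0 in each.

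In treated tumour against wild-type organoids 11 of the 28 were above 0 and 17 below, with a median of -0.039, against 47.9% of all counted probes above 0. With the spike controls 21 of the 28 were above 0, against 97.1% of all probes. None was called higher, against 1.27% of all probes, miR-22-3p being closest at 0.98. The 4 called lower, against 1.36% of all probes, were miR-215-5p (-4.25), miR-215-3p (-1.03), miR-192-5p (-2.97) and miR-194-5p (-3.28).

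**Figure D4:**
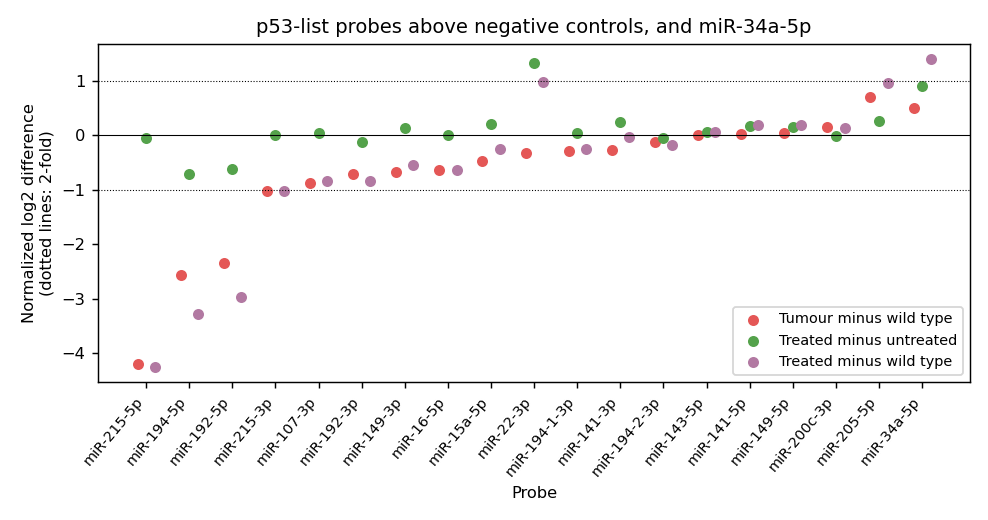
Normalized log2 differences in the 3 comparisons (colours) for the 18 p53-list probes brighter than the negative controls on at least 1 array, with miR-34a-5p at the right; dotted lines mark 2-fold. miR-34a-5p has 0.49, 0.90 and 1.39, and miR-215-5p has -4.20, -0.05 and -4.25.

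A list of microRNAs described elsewhere as silenced by DNA methylation (miR-9, miR-124, miR-127, miR-129, miR-137, miR-148a, miR-203 and miR-342) was read beside miR-34a-5p for the inhibitor. Of its 17 probes 5 were brighter than the negative controls on at least 1 array. In treated against untreated tumour organoids 14 were counted, 8 above 0 and 6 below, with a median of 0.012, against 44.6% of all probes above 0. None was called, against 0.0985% of all probes higher and 0% lower. Those above 0 numbered 14 of 14 with the spike controls, 12 of 14 scaled to the common-probe median, 7 of 14 scaled to the all-probe median, 4 of 14 unscaled and 4 of 10 in the authors' values, where the shares of all probes were 94.3%, 63.3%, 38.03%, 7.19% and 25.3%. The highest was miR-203-3p, a microRNA of epithelial differentiation, at 0.53, from 61.4 to 74.3 above blank, after 96.2 in wild-type organoids. It was above 0 in each setting for the treated comparison. The lowest was miR-148a-3p at -0.24, which turned positive in 1 alternative setting, while miR-9, miR-124, miR-127 and miR-137 had no probe above the negative controls.

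The cell types in the cultures were read from 5 marker lists. All 8 probes of the intestinal epithelial list were brighter than the negative controls on each array, with a summed signal above blank of 11068 in wild-type, 6748 in tumour and 4416 in treated organoids. The lower sums of tumour organoids came from miR-192-5p, miR-194-5p and miR-215-5p. The other 5, of the miR-200 family, were each brighter above blank in tumour than in wild-type organoids before scaling, for example miR-200a-3p at 1404 against 1183. Unscaled, 81.7% of all counted probes were above 0 in this comparison. With quantile scaling miR-200a-3p, miR-200b-3p and miR-141-3p were at -0.27, -0.36 and -0.27, miR-200c-3p at 0.15 and miR-429-3p at 0.0035. Of 6 blood probes 1 was so on each array, miR-223-3p, with sums of 32.4, 66.5 and 28.6; the erythroid miR-451a and miR-144-3p were within 3 units of the blank mean. Of 5 stromal names 4 had a probe, with sums of 72.7, 70.4 and 45.3, and 2, 2 and 1 of them were above the negative controls. miR-214-3p was above them on each array, at 42.6, 35.5 and 26.6 above blank, and miR-199a-5p in wild-type and tumour organoids. miR-143-3p and miR-145a-5p, known from smooth muscle and fibroblasts, were under them on each array. The other arm of the former, miR-143-5p, was outside this list and above them on each array, at 32.5, 46.6 and 33.0. Neither endothelial name matched a probe. The 3 multiciliated-cell probes, those of miR-449, summed to 7.05, 14.4 and 7.17, all under the negative controls. These sums are unscaled, and the spike controls were dimmer on the treated array. The part of cell makeup in the differences of miR-34a-5p was not tested.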

How the data were processed

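RNA came from a mirVana extraction and carried the dye Hy5, per the labels' protocols. The deposited scanner intensity is 1 spot median at 635 nm, with a background median beside it, from scans at 3 gains, per the file headers. In the authors' value table the deposited intensity equals the spot median less the blank mean, over 1 factor per array (largest residual 1.3e-05); 311 wild-type, 303 tumour and 350 treated entries are empty. The sources used here do not give platform or scanner software.

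Spots marked bad at any gain were left out, 2 probes on the wild-type array and none of the miR-34 probes. limma 3.58.1 in R 4.3.3 applied normexp with the mean and SD of the 1664 blank spots (5% trimmed at each end), an offset of 50 and quantile normalization over all 1265 probes. Python 3.11.15, pandas 2.3.3, numpy 2.4.6 and matplotlib 3.10.9 did the rest. Of these steps only the main background correction and quantile normalization were tested on simulated data. The simulated arrays were drawn from the wild-type signal, and the criteria covered bright probes alone. No difference has an error between cultures, and the number of arrays limits the precision.

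The members and lists were chosen with earlier results of these data known. Named were all miR-34 and miR-449 probes, p53-list and methylation-list probes above the negative controls, the 5 probes nearest in pattern, the neighbours in brightness and the cell markers; miR-221-3p, miR-23a-3p and miR-23b-3p were named after their values were seen. No scaling was an alternative added after seeing the data. Probe sequences were not used here.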

Additional observations from a re-analysis of the deposited data

How the results depend on the processing

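For miR-34a-5p the difference of tumour from wild type (0.49) became 0.66 with the blank mean subtracted, -0.11 with the per-spot background column, 0.70 with the median of commonly detected probes, 0.81 with that of all probes, 0.89 with the spike controls, 0.72 in the authors' values and 1.16 with no scaling. The treated minus untreated difference (0.90) became, in the same order, 1.08, 0.29, 0.62, 0.52, 1.11, 0.92 and 0.52. The treated minus wild-type difference (1.39) became 1.60 with the offset of 16, 1.74, 0.18, 1.32, 1.33, 2.002, 1.64 and 1.68, so only the background column took it under 2-fold. The median of all counted probes itself moved to 0.09, 0.56 and 0.67 in these comparisons with the spike controls, to 0.10, -0.26 and -0.14 in the authors' values and to 0.53, -0.67 and -0.13 with no scaling. The median of the 6 miR-34 probes became 0.32 in tumour against wild type with no scaling. In treated against untreated it became 0.26 (offset of 16), 1.05 (blank mean subtracted), 0.71 (spike controls), 0.61 (authors' values) and 0.37 (no scaling), and in treated against wild type 0.56, 0.72, 0.30 and 0.34 for the last 4. The blank mean plus 2 SD was passed by 6, 5 and 6 miR-34 probes and plus 3 SD by 6, 4 and 6, in place of 1 above the negative controls on each array. At 1.5-fold the miR-34 and p53-list probes past the threshold numbered 1 higher and 8 lower in tumour, 2 and 2 in treated against untreated, and 3 and 7 in treated against wild type, in place of 0 and 4, 1 and 0, and 1 and 4. Counted were 6 miR-34 probes in each comparison and 27, 28 and 28 of the p53 list. The shares of all counted probes at 1.5-fold were 3.17% and 3.65%, 0.591% and 0.69%, and 3.21% and 3.89%. At 2-fold they were 1.25% and 1.35%, 0.0985% and 0%, and 1.27% and 1.36%. Values of another scanner gain were not run, since the files used here give 1 value per spot. No paired analysis was possible because each group has 1 array. The cause of these shifts was not tested.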
